A study of Mus musculus with 17 samples.

Results

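The comparison described here is tau injection against saline injection in the hippocampus of wild-type (WT) male mice, 3 libraries against 3. The 6 libraries were chosen by their labels, male WT tau 771, 772 and 773 and male WT PBS 791, 792 and 793, out of 17 libraries in the series. Every expressed gene was considered, then functional groups of genes. At 6 months of age the mice received either AD tau or phosphate-buffered saline (PBS) in the dorsal hippocampus. AD tau is the detergent-insoluble tau purified from the frontal cortex of people who died with Alzheimer's disease (AD). Per the study's methods the tau went into the right side only, and tissue was taken 6 months after injection. The WT mice descended from crosses within a line that also gave Acss2 knockout (KO) mice, and all 6 carried intact Acss2, the gene for acetyl-CoA synthetase 2. The sources used here gave no strain name and did not say whether the sequenced slice held the injected side alone. Poly(A) RNA came from slices of dorsal hippocampus, 1 mm thick, holding CA1, CA2, CA3 and the dentate gyrus. Library numbers are the labels' own, and no label states that each came from a separate mouse, so the spread between libraries may be partly technical.

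Tau binds and stabilises the microtubules of axons. In Alzheimer's disease it becomes highly phosphorylated and aggregates, and aggregates from human brain seed the misfolding of the mouse's own tau, which spreads between connected cells. In affected brain, astrocytes and microglia take on reactive states, synapses are lost and the myelin that oligodendrocytes wrap around axons can be altered. In a tissue slice, the RNA of all these cells is pooled, and fewer cells of a type and less RNA per cell cannot be told apart.

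Values are counts scaled to library size (CPM, reads of a gene scaled to a fixed library total), and fold changes are log2 of tau over PBS with their standard error (SE). Total counts ran from 16761458 to 20321084, so the 3 counts taken as the limit of detection corresponded to 0.148 to 0.179 CPM, for counting error only. The closest pair, PBS 792 and tau 773, still differed by a chi-square of 3.60 per gene, so no library was a duplicate of another. Markers of every hippocampal field were present in each library. Prox1 and C1ql2 of the dentate gyrus were at 23.4 to 42.6 and 70.8 to 105 CPM, Wfs1 and Fibcd1 of CA1 at 154 to 223 and 132 to 175 CPM, Rgs14 of CA2 at 98.0 to 134 CPM and Cpne4 of CA3 at 100 to 126 CPM. Acss2 was at 44.0 to 54.6 CPM in the 6 libraries and at 3.07 to 5.74 CPM in the 6 male KO libraries.

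A pair of libraries stood apart before any gene was compared. WT PBS 791 carried markers of cerebellum, with Cbln3, a gene of cerebellar granule cells, at 82.8 CPM against at most 1.2 CPM in the other 5, and Gabra6, the granule cell GABA-A receptor subunit, at 36.8 CPM against at most 0.27. The cerebellum list, added after these values were seen, summed to 516 CPM there and to 66.3 to 105 CPM elsewhere. WT Tau 772 carried the most choroid plexus and meningeal RNA. Ttr, the transthyretin of choroid plexus, stood at 492 CPM in it and at 22.6 to 85.2 CPM in the other 5. Of 13948 genes, 23 stood apart in 791 and 39 in 772, against at most 1 in each of the other 4 libraries. Results that rest mainly on either library are given with and without it.

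Across the transcriptome no gene passed a false discovery rate (FDR) of 0.05. Of 15098 tested genes, 0 were called by the edgeR quasi-likelihood test with Benjamini-Hochberg adjustment (0% called), and the adjusted p was 1.00 for every gene. At an unadjusted p under 0.05 there were 281 genes (1.86% of those tested), of which 161 were higher after tau (1.07%) and 120 lower (0.795%). That share is below the 0.05 that such a threshold gives on average when no gene differs, so this fit was conservative. The reason was not tested. On the 6 WT libraries alone edgeR gave 1192 of 14698 genes at that p. The 0 calls therefore do not show that tau had no effect. The median log2 fold change of all genes was -0.01, the median absolute value was 0.09 and 95% of genes lay within 0.51 of 0. The median SE was 0.16. A slight minority of genes, 7198 (47.7%), were above 0.

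Direction and size depended on expression level. Among the 2418 genes at 100 CPM or more, the median absolute log2 fold change was 0.07, and 2 genes, Ttr and Ptgds, were over 2-fold higher and 0 over 2-fold lower. Among the 1155 genes under 1 CPM the median absolute value was 0.34 and the median SE 0.47. At 1 CPM or more, 56 genes were over 2-fold higher and 11 over 2-fold lower. Of the 56, 9 belonged to the choroid plexus list, 7 to the ependymal and motile cilium lists and 7 to the meningeal list, and 21 did not overlap between groups. Of the 11 lower ones, 5 were cerebellum markers, among them Fat2 at -5.32, Cbln3 at -5.19, Pcp2 at -3.09 and Car8 at -2.67, all high in PBS 791 alone.

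**Figure D1:**
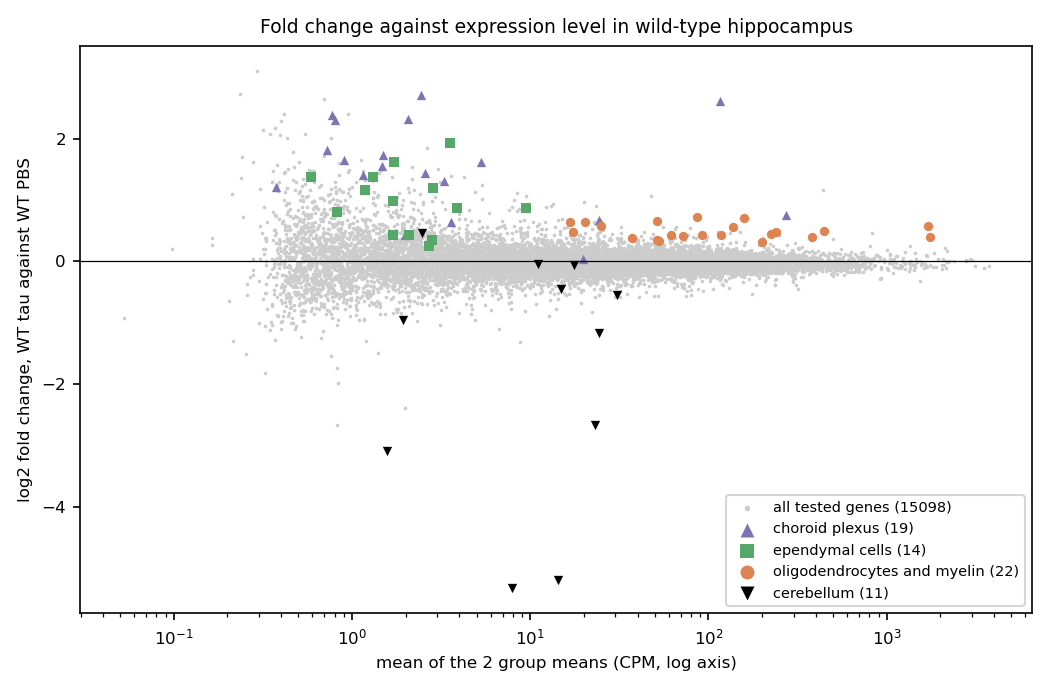
Log2 fold change of WT tau against WT PBS (vertical axis) against the mean level in CPM (horizontal log axis) for 15098 genes. Members of the choroid plexus, ependymal and myelin lists lie above 0, and the genes below -2 with the highest levels are cerebellum markers.

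Libraries of the same group were no more alike than libraries of different groups. Over the 2000 most variable genes, the correlation of log2 levels was 0.905 to 0.941 within groups (median 0.919, 6 pairs) and 0.845 to 0.954 between groups (median 0.918, 9 pairs).
Genes whose 3 tau values all lay outside the 3 PBS values numbered 1032 higher (6.84% of those tested) and 816 lower (5.4%). Single-value exact permutation tests on 3 against 3 cannot go below 0.1, so non-overlap is given as a count.

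Myelin genes leaned 1 way. Oligodendrocytes wrap axons in myelin, a membrane rich in galactolipids and in specialised proteins such as MBP. All 22 tested myelin genes were higher after tau, with a median log2 fold change of 0.46 (range 0.31 to 0.72) against -0.01 for all genes. Of the 22, 13 had an unadjusted p under 0.05, where 1.07% of all genes did in that direction, 9 did not overlap between groups, where 6.84% of all genes did, and 0 passed the FDR in edgeR. The values of this list share libraries and cells, so its genes are not independent of each other.

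Ugt8a, which makes the galactolipid of myelin, had the smallest p of the list. It stood at 35.1, 50.2 and 34.4 CPM in PBS 791, 792 and 793 and at 68.9, 67.3 and 54.6 CPM in tau 771, 772 and 773. The groups did not overlap, the lowest tau library being 773 and the highest PBS library 792. The log2 fold change was 0.65 (SE 0.21), with an unadjusted p of 0.00895 and an adjusted p of 1.00 in edgeR. Ugt8a lies on chromosome 3 from 125865271 to 125938619 on the minus strand of GRCm38.

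Mbp, the most abundant member, was at 1264, 2074 and 1168 CPM after PBS and 1935, 2320 and 1751 CPM after tau, a log2 fold change of 0.39 (SE 0.37). Here PBS 792 reached above tau 771 and 773, so the groups overlapped. Opalin, a membrane protein of myelinating oligodendrocytes, was at 18.0, 25.9 and 15.6 CPM after PBS and 30.9, 32.4 and 26.7 CPM after tau.

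The myelin direction held with each library left out. The list's summed level was 4325, 6388 and 4050 CPM in PBS 791, 792 and 793 and 7028, 7856 and 5965 CPM in tau 771, 772 and 773, so that PBS 792 exceeded tau 773. With each of the 6 libraries left out in turn all 22 genes stayed above 0, and the median ran from 0.36 without PBS 793 to 0.70 without PBS 792. The number of myelin genes at an unadjusted p under 0.05 went from 13 to 1 without tau 772, and to 2 without PBS 791 or PBS 793. Over all tested genes, in either direction, that number fell as well. It went from 281 of 15098 to 116 of 15258 without 772, 111 of 15276 without 791 and 169 of 15281 without 793. With both 791 and 772 left out, the median was 0.30 and none of the 22 had an unadjusted p under 0.05. Of all genes, 51 of 15213 did in that fit.

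Whether a gene passed depended on the fit. DESeq2 on the 6 libraries alone, with the Benjamini-Hochberg adjustment, called 11 of 12701 genes (0.0866%), all higher after tau. Cd9, Gm7120, Gsn, Ndrg1, Ppp1r14a, Qdpr, Rn45s, Tmem88b, Trim59 and Ugt8a were among the 11, named because they passed this alternative. Ugt8a and Ppp1r14a are members of the myelin list. On the same 6 libraries edgeR called 0 genes, but 1192 had an unadjusted p below 0.05, 663 of them higher (4.51%) and 529 lower (3.6%), with 20 of the 22 myelin genes among the higher ones. DESeq2 on the 12 male libraries also called 0, and 250 had an unadjusted p below 0.05. Without PBS 792, DESeq2 called 120 of 14873 genes (0.807%), 102 of them higher, with 21 of the 22 myelin genes among the higher ones. Without PBS 792, edgeR on WT libraries called 36 of 14873 (0.242%), 33 of them higher, with 16 myelin genes among the higher ones. Leaving out 791, 793, 771 or 772 gave 1 to 3 genes in DESeq2 and 0 in edgeR.

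Gm7120, a predicted gene singled out after its values were seen, had the smallest unadjusted p of all 15098 genes. It was at 16.7, 17.0 and 14.9 CPM after PBS and 24.8, 36.5 and 30.2 CPM after tau, with no overlap. Its log2 fold change was 0.90 (SE 0.20), with an unadjusted p of 0.000935 and an adjusted p of 1.00 in edgeR. DESeq2 on the 6 libraries gave it an adjusted p of 2.79e-06. It was called by DESeq2 on the WT libraries under each of the 6 omissions, but not with both 791 and 772 left out. Rn45s, the ribosomal RNA precursor, was at 593 to 760 CPM after PBS and 881 to 1064 CPM after tau, and poly(A) selection is meant to remove that RNA.

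**Figure D2:**
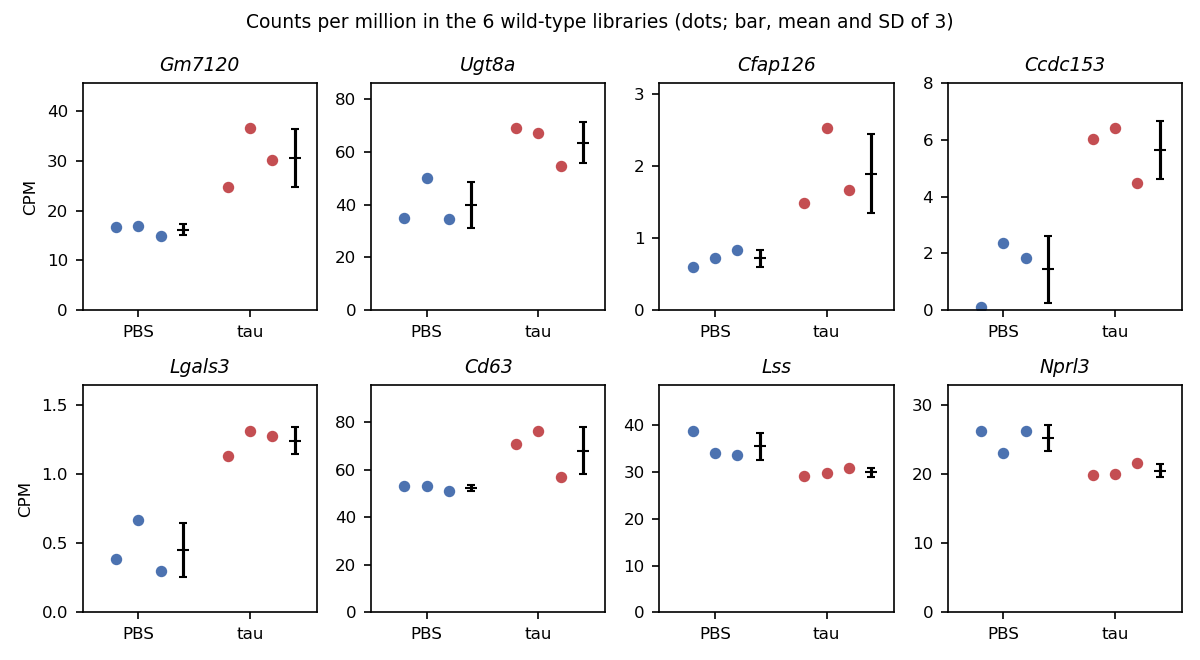
CPM of 8 genes in each of the 3 PBS (blue) and 3 tau (red) WT libraries, with the mean and SD of each group, on axes that start at 0. Gm7120, Ugt8a, Cfap126, Ccdc153, Lgals3 and Cd63 are higher in all tau libraries, and Lss and Nprl3 are lower in all tau libraries.

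Ependymal genes were the next group. Ependymal cells line the ventricles and beat motile cilia, which are built under the regulators FOXJ1 and RFX factors. All 14 members present in the table were higher after tau, 4 at an unadjusted p under 0.05 (1.07% of all genes) and 8 with no overlap (6.84% of all genes), with a median log2 fold change of 0.93 (range 0.25 to 1.93). These are low-level genes, summing to 14.4, 31.4 and 28.9 CPM in PBS 791, 792 and 793 and 49.1, 56.6 and 37.9 CPM in tau 771, 772 and 773. PBS 791 was the lowest in the list, and the summed level of every tau library exceeded that of every PBS library. PBS 791 is also the library with cerebellar RNA, and the part of that in its low ependymal values was not tested.

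Ccdc153, a protein of motile cilia, was at 0.11, 2.38 and 1.85 CPM after PBS and 6.02, 6.41 and 4.48 CPM after tau. The groups did not overlap, and the log2 fold change was 1.93 (SE 0.69), although PBS 791 held under 3 counts of it. Cfap126, a basal body protein of motile cilia, was at 0.60, 0.72 and 0.84 CPM after PBS and 1.49, 2.52 and 1.67 CPM after tau, a log2 fold change of 1.37 (SE 0.39). Foxj1, the master regulator of motile ciliogenesis, was at 3.34, 8.63 and 7.93 CPM after PBS and 11.6, 15.6 and 9.79 CPM after tau, with a log2 fold change of 0.87 (SE 0.40). Without PBS 791 the list median was 0.67 with all 14 genes above 0, and without 791 and 772 together it was 0.57 with 13 above 0.

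The 12 genes named for the smallest p among those higher after tau held none past the FDR. Crocc2, a rootlet protein of cilia, was at 0.33, 0.62 and 0.54 CPM after PBS and 1.13, 1.92 and 1.23 CPM after tau. Ccdc180 was at 0.05, 0.36 and 0.48 CPM after PBS and 1.31, 2.25 and 1.28 CPM after tau, with a log2 fold change of 2.40 (SE 0.68), although PBS 791 held under 3 counts of it. Dmkn had a log2 fold change of 2.02 (SE 0.52), Lrrc74b of 1.29 (SE 0.34), Ppp1r32 of 1.34 (SE 0.38), Cdhr3 of 1.20 (SE 0.37) and Ccdc121 of 1.16 (SE 0.34), all with tau means of 1.21 to 2.90 CPM. PBS 791 held under 3 counts of Dmkn too. A list of 47 motile cilium genes taken by symbol prefix, added after values were seen, had 33 higher and a median of 0.14. At an unadjusted p under 0.05, 4 were higher (1.07% of all genes) and 1 lower (0.795% of all genes). Rsph6a was lower, at 0.71, 0.52 and 0.95 CPM after PBS and 0.36, 0.22 and 0.34 CPM after tau.

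Promoters of these 2 lists are shown because all their tested members lay above 0 and some had an unadjusted p under 0.05. The 250 bases before the start of transcription were scanned on both strands for 2 short motifs. GTTGCC, the core of the RFX X-box, was in 5 of 16 promoters of the 11 ependymal genes with a RefSeq promoter (31.2%) and in 10.4% of all 32851 mouse promoters. ACAAAG, a SOX factor site, was in 9 of 21 promoters of the 15 myelin genes with one (42.9%) and in 16.5% of all promoters. Promoters are not independent, as Mag and Gjb1 each had 2 with ACAAAG and those of Mag overlap. Counted by gene, ACAAAG was in 7 of these 15 genes and in 5015 of 27025 genes with a promoter. By gene, GTTGCC was in 5 of the 11 ependymal genes and in 3195 of the 27025. GTTGCC was in 1 of the 21 myelin promoters (4.76%) and ACAAAG in 3 of the 16 ependymal ones (18.8%). A match is a description of these letters, not a binding site. Matches of either motif are in capitals, from RefSeq on GRCm38.p6, for Ccdc153 (chr9:44240427-44240676, plus strand) and Opalin (chr19:41077114-41077363, minus strand), which hold them.
Ccdc153: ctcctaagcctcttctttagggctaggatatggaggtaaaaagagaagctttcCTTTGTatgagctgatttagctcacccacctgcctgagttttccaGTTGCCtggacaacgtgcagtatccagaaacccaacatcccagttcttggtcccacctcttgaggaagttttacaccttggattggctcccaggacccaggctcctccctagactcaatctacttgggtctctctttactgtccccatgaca
Opalin: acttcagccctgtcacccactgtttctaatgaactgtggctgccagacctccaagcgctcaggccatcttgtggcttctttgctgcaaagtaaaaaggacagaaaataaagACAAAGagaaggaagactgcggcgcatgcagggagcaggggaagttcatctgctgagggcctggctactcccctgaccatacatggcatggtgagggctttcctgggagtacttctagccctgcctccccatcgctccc

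Choroid plexus and meningeal genes had large medians that rested mostly on tau 772. Of 20 choroid plexus genes 19 passed the low-count filter and all 19 were higher, with a median log2 fold change of 1.57, but 0 had an unadjusted p under 0.05 and 3 did not overlap (6.84% of all genes). Kcnj13, a potassium channel of choroid plexus epithelium, was at 0.66, 0.72 and 0.66 CPM after PBS and 1.19, 7.72 and 1.48 CPM after tau. Enpp2, the autotaxin gene, was at 176, 245 and 181 CPM after PBS and 276, 517 and 243 CPM after tau. In both, tau 772 was far above the rest. Without 772 the choroid plexus median was 0.49, and without 772 and 791 it was 0.31. Of the 21 meningeal and perivascular fibroblast genes, 20 were higher, 0 at an unadjusted p under 0.05 and 0 without overlap, with a median of 0.83 that became 0.19 without 772. Ptgds, the prostaglandin D synthase of leptomeninges, was at 251, 162 and 394 CPM after PBS and 335, 1077 and 414 CPM after tau. Igf2 was at 35.8, 21.3 and 34.2 CPM after PBS and 34.8, 113 and 45.3 CPM after tau, and Dcn, a fibroblast proteoglycan, at 23.1, 6.05 and 49.9 CPM after PBS and 27.6, 20.6 and 16.8 CPM after tau.

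**Figure D3:**
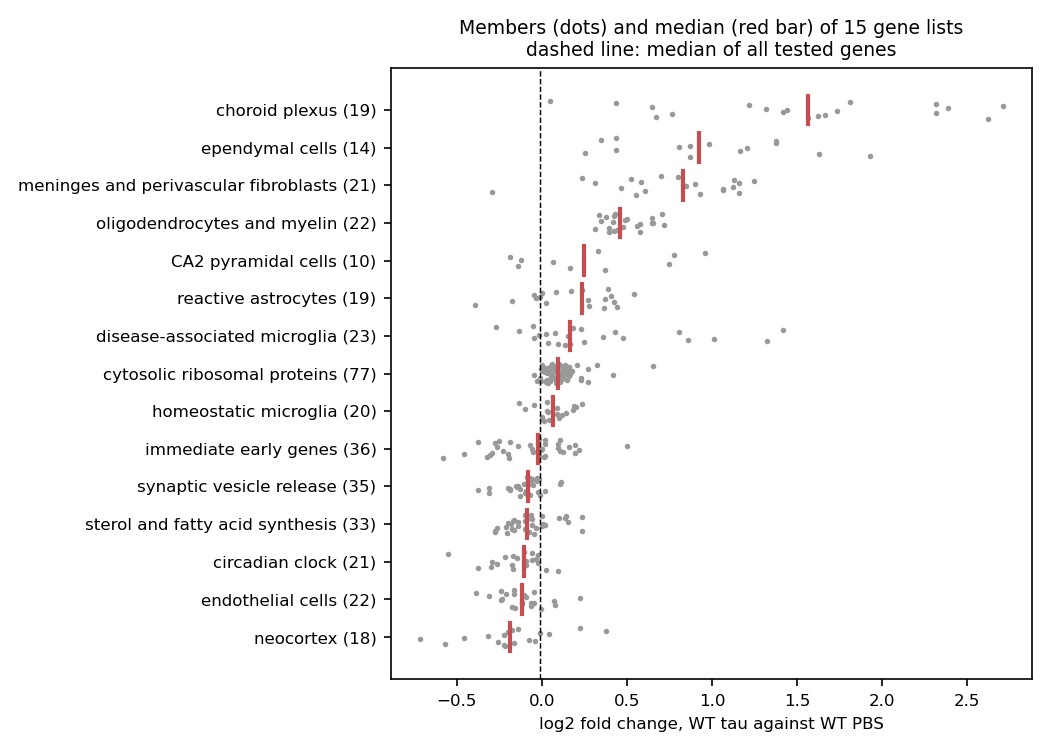
Log2 fold changes of the members (grey dots) and the median (red bar) of 15 lists, with the number of tested genes in brackets, against the median of all genes (dashed). Choroid plexus (1.57), ependymal (0.93), meningeal (0.83) and myelin (0.46) lists lie furthest right and neocortex (-0.19) furthest left.

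Reactive astrocyte genes had 13 of 19 tested members higher (23 listed), 0 at an unadjusted p under 0.05 and 2 without overlap upward, against 6.84% of all genes, with a median of 0.24. Gfap, the intermediate filament that marks reactive astrocytes, was at 417, 513 and 375 CPM after PBS and 535, 678 and 491 CPM after tau, overlapping through PBS 792 (log2 fold change 0.37, SE 0.51). Vim was at 44.6, 43.9 and 35.6 CPM after PBS and 50.8, 72.3 and 47.6 CPM after tau (0.44, SE 0.22). S1pr3, the member with the smallest p among the lower ones, was at 9.87, 11.2 and 10.5 CPM after PBS and 8.11, 9.26 and 10.8 CPM after tau. Without 772 the median was 0.06, and without 791 and 772 it was -0.01. Homeostatic astrocyte genes had a median of -0.01, with 9 of 20 higher.

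The disease-associated microglia list, genes that microglia near plaques and damaged myelin raise, had 18 of 23 tested members higher (25 listed), 4 higher at an unadjusted p under 0.05 (1.07% of all genes) and 6 without overlap upward (6.84% of all genes), with a median of 0.17. Lgals3, galectin-3, was at 0.38, 0.67 and 0.30 CPM after PBS and 1.13, 1.31 and 1.28 CPM after tau, a log2 fold change of 1.42 (SE 0.45). Cd9, a tetraspanin also made by oligodendrocytes, was at 36.0, 38.4 and 34.5 CPM after PBS and 50.7, 58.9 and 43.8 CPM after tau. Cd63, a tetraspanin of endosomes and lysosomes, was at 53.2, 53.2 and 51.1 CPM after PBS and 70.8, 76.5 and 57.1 CPM after tau. Ccl6, a chemokine, had a log2 fold change of 0.80 (SE 0.31), and the most abundant member, Fth1, of 0.23 (SE 0.29). Cd68 was the member without overlap downward, at 8.55, 8.37 and 7.88 CPM after PBS and 7.63, 7.73 and 7.48 CPM after tau. Apoe was at 0.13 (SE 0.20) and Trem2 at 0.09 (SE 0.19). Homeostatic microglia genes had 17 of 20 higher, with a median of 0.06, and Aif1 was at 0.03 (SE 0.25).

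CA2 pyramidal cell genes had 7 of 10 higher, with a median of 0.25, 0 at an unadjusted p under 0.05 and 3 without overlap (6.84% of all genes). The median was 0.17 without tau 772 and 0.11 without PBS 791 and tau 772. Map3k15 was at 1.53, 1.71 and 1.01 CPM after PBS and 2.50, 3.01 and 1.77 CPM after tau, while Ptpn5, the most abundant member, was at 158, 176 and 173 CPM after PBS and 142, 143 and 165 CPM after tau. Neocortex genes had 15 of 18 lower, with a median of -0.19 and no member at an unadjusted p under 0.05 or without overlap. Their summed level was 972, 944 and 975 CPM after PBS and 831, 801 and 961 CPM after tau, so tau 773 alone was near the PBS values. Without tau 773, DESeq2 on the WT libraries called 275 of 13419 genes (2.05%) with Benjamini-Hochberg adjustment, 90 higher and 185 lower. On the same libraries edgeR called 16 of 14861 (0.108%), 1 higher and 15 lower. Cux2 and Lamp5 were among the lower ones in both. Igfn1, named because it had the smallest p of those fits, was at 12.6 ± 1.57 CPM after PBS (SD, n = 3) and at 1.43, 1.10 and 12.5 CPM after tau 771, 772 and 773. Cux2, an upper-layer transcription factor, was at 63.3, 56.6 and 65.5 CPM after PBS and 37.0, 27.6 and 61.1 CPM after tau. Calb1 was at 170, 117 and 131 CPM after PBS and 110, 108 and 121 CPM after tau, and Hs3st4 had the smallest p among the higher ones, with a log2 fold change of 0.22 (SE 0.23).

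**Figure D4:**
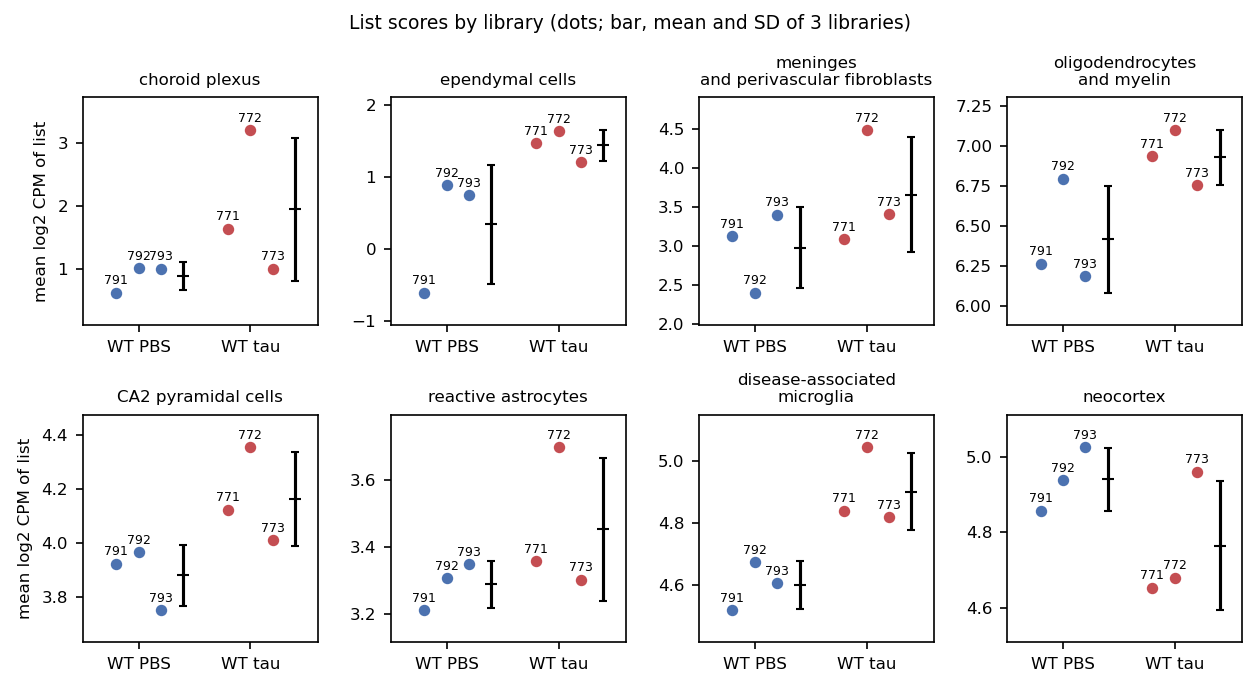
Mean log2 CPM of 8 gene lists in each library, numbered, with the mean and SD of each group. Tau 772 is the highest for choroid plexus (3.20 against 0.63 to 1.64) and meninges, PBS 791 the lowest for ependymal cells (-0.60), and the other lists overlap or are separated by small steps.

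Of the 53 lists, 28 had a median above that of all genes and 25 below. The other lists had medians between -0.11 and 0.16, all with 0 genes past the FDR in edgeR. For 14 of these 45 lists the sign of the median changed without PBS 791, without tau 772 or without both, and none of the 14 had a median farther than 0.13 from 0.

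Among neuronal lists, synaptic vesicle release genes had 3 of 35 higher, with a median of -0.08. Postsynaptic scaffold genes had 5 of 24 higher and a median of -0.07, and kainate and metabotropic receptors 5 of 14 and -0.08. AMPA and NMDA receptors had 7 of 18 higher and a median of -0.03. GABA-A receptor subunits had 6 of 13 and 0.00. Voltage-gated sodium and calcium channels had 6 of 23 higher and -0.06, and potassium channels 15 of 37 and -0.03. Fewer members were higher than lower in each of these 7 lists. Inhibitory neuron genes had 7 of 21 higher and -0.04, Cajal-Retzius cells 5 of 9 and 0.01, dentate granule cells 7 of 15 and -0.01, CA1 cells 7 of 10 and 0.11 and CA3 cells 7 of 10 and 0.16. Without tau 772, 5 of 10 CA1 genes and 5 of 10 CA3 genes were higher, with medians of 0.04 and 0.01. Immediate early genes, switched on by neuronal activity, had 15 of 36 higher and -0.02. Fos was at -0.19 (SE 0.55), Arc at 0.20 (SE 0.25), Npas4 at 0.12 (SE 0.42) and Bdnf at 0.02 (SE 0.25).

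Clock genes had 2 of 21 higher, with a median of -0.10. Per1, a repressor of the clock, was at 128, 145 and 135 CPM after PBS and 91.2, 100 and 125 CPM after tau, without overlap, with a log2 fold change of -0.38 (SE 0.14) and an unadjusted p of 0.021. Ciart, another repressor, was at 11.9, 10.9 and 10.4 CPM after PBS and 7.87, 6.30 and 8.71 CPM after tau, with -0.55 (SE 0.23). Per2 and Dbp were the other members without overlap downward, 4 of 21 in all (5.4% of all genes). Upward, 1 member was without overlap (6.84% of all genes). Glucocorticoid response genes had 9 of 19 higher and a median of -0.01.

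Sterol and fatty acid synthesis genes had 10 of 33 higher and a median of -0.09, with 8 without overlap downward (5.4% of all genes) and 2 upward (6.84% of all genes). Lss, the lanosterol synthase, was at 38.9, 34.1 and 33.6 CPM after PBS and 29.1, 29.8 and 30.9 CPM after tau, with a log2 fold change of -0.26 (SE 0.09) and an unadjusted p of 0.012. Mvk, mevalonate kinase, had a log2 fold change of -0.28 (SE 0.10). Both act in cholesterol synthesis. Scd2, the most abundant member of this list, was at 0.14 (SE 0.15). Glycolysis and lactate genes had 7 of 25 higher and -0.07, acetyl-CoA enzymes 6 of 13 and -0.05 and oxidative phosphorylation genes 60 of 75 and 0.06, and Acss2 was at -0.10 (SE 0.17).

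Ribosomal protein genes of the cytosol had 71 of 77 higher, with a median of 0.09. None, 0 of 77, had an unadjusted p under 0.05, and 27 were without overlap upward (6.84% of all genes). Their summed level was 9486, 9644 and 9188 CPM after PBS and 10579, 10024 and 9612 CPM after tau, so tau 773 lay below PBS 792. Proteasome genes had 23 of 31 higher and 0.05, and heat shock proteins and chaperones 31 of 39 and 0.09. Unfolded protein and integrated stress response genes had 20 of 31 higher and 0.04. Of these, 0 had an unadjusted p under 0.05 and 10 were without overlap upward (6.84% of all genes). Lysosome genes had 23 of 39 higher and 0.03, and autophagy genes 17 of 34 and 0.00.

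Complement genes had 17 of 21 higher and a median of 0.09, MHC class I and interferon response genes 25 of 32 and 0.12, and interleukin, chemokine and NF-kB signalling genes 18 of 25 and 0.12. The interferon list rested on tau 772, with 14 of 32 higher and a median of -0.05 without it, and the interleukin median was 0.07 without it. Il33, an alarmin that oligodendrocytes and astrocytes make, was at 60.5, 75.0 and 59.1 CPM after PBS and 94.3, 97.8 and 74.8 CPM after tau. Endothelial genes had 3 of 22 higher and -0.11, with 1 without overlap upward and 4 downward (5.4% of all genes), among them Mfsd2a, the lipid transporter of the blood-brain barrier, at -0.39 (SE 0.17). Pericyte and smooth muscle genes had 6 of 16 higher and -0.05, oligodendrocyte precursors 6 of 15 and -0.01, and red blood cell genes 1 of 2.

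Tau and the genes around it came next. Mapt, the mouse tau gene, was at 609, 619 and 630 CPM after PBS and 602, 614 and 637 CPM after tau, a log2 fold change of -0.02 (SE 0.10, 3 against 3). The list of tau and microtubule-associated proteins had 6 of 25 higher and a median of -0.03, and tau kinases and phosphatases 11 of 34 and -0.04. App, the amyloid precursor, was at 0.00 (SE 0.16), and App and its secretases had 7 of 19 higher and -0.03. Alzheimer risk gene orthologues had 18 of 29 higher and 0.02. Histone acetylation genes had 5 of 28 higher and -0.06, Rfx factors 3 of 9 and -0.08, Rfx3 being at 0.10 (SE 0.44), and long noncoding RNAs retained in the nucleus 6 of 14 and -0.09. Neurotrophins and receptors had 9 of 21 higher and -0.04, and cell division and neurogenesis genes 10 of 19 and 0.04. Of tissue bordering the slice, thalamus genes had 11 of 18 higher and 0.13 (5 of 18 and -0.13 without tau 772), striatum genes 7 of 15 and -0.06, and cerebellum genes, added after values were seen, 1 of 11 and -0.96 (9 of 11 and 0.30 without PBS 791).

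The 12 named genes lower after tau had fold changes nearer 0 than most of the higher ones. Nprl3, a brake on mTORC1 signalling, was at 25.2 ± 1.85 CPM after PBS and 20.5 ± 0.941 CPM after tau (SD, n = 3 each) with no overlap, a log2 fold change of -0.31 (SE 0.10). Adamts10, an extracellular metalloprotease, was at 32.0, 17.2 and 22.4 CPM after PBS and 14.2, 14.5 and 16.1 CPM after tau, with the highest PBS library being 791. Dennd6b was at 90.1, 63.0 and 66.0 CPM after PBS and 51.3, 52.0 and 59.8 CPM after tau. Kiss1r, Kifc5b, Ccdc64, Pcdhga2, Shf, Stk40 and Zc3h3 had log2 fold changes from -0.63 to -0.27, and all 12 had an adjusted p of 1.00 in edgeR. Snhg18, Gbp11 and Sypl were also named on the higher side, at 0.93 (SE 0.27), 1.30 (SE 0.39) and 0.29 (SE 0.09).

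**Figure D5:**
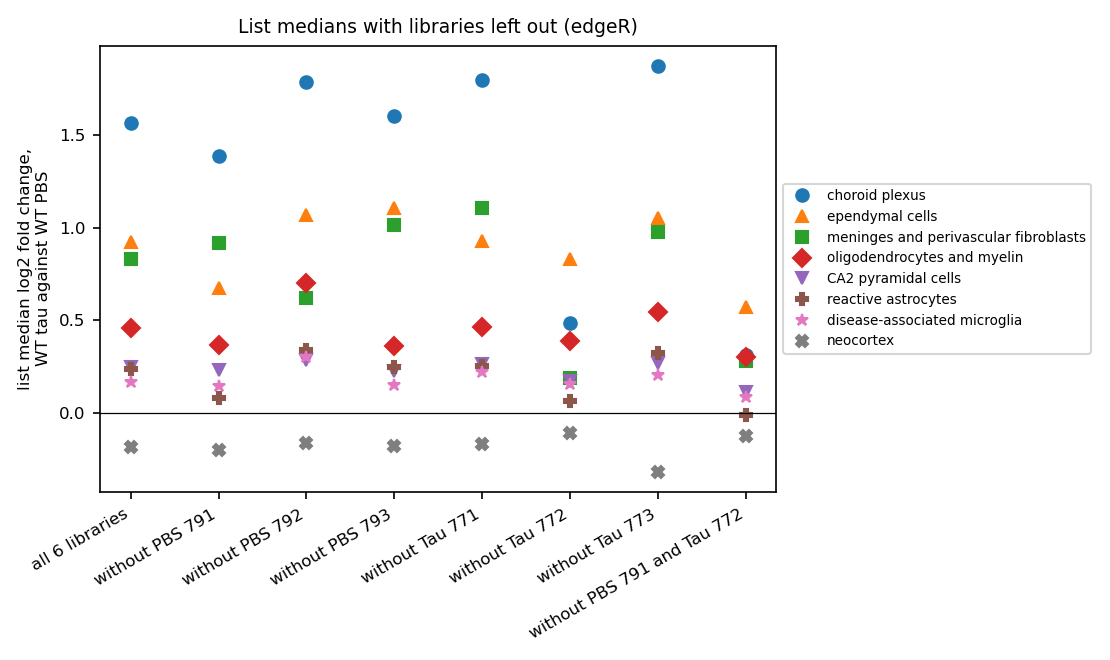
Median log2 fold change of 8 lists with all 6 libraries and with each left out in turn, and with PBS 791 and Tau 772 left out together. The choroid plexus median goes from 1.57 to 0.49 without 772, and the myelin median stays between 0.30 and 0.70.

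The same tau against PBS contrast in Acss2 KO males shares no library with the WT one. KO Tau 713 stood apart there, with a summed choroid plexus level of 5551 CPM. The other 2 KO tau libraries were at 364 to 639 CPM and the 3 KO PBS ones at 347 to 515 CPM. The KO list medians of this paragraph are therefore given with and without 713. KO PBS 752 also differed from KO PBS 751 and 753. Its striatum genes summed to 1372 CPM against 552 and 533, neocortex genes to 1499 against 751 and 763, and CA1 genes to 511 against 1278 and 1217. KO Tau 711 differed from KO Tau 712 and 713 too. Its cytosolic ribosomal protein genes summed to 14500 CPM against 10525 and 10261. Its homeostatic astrocyte genes summed to 13699 CPM against 8141 and 8390, and its myelin genes to 9303 against 4824 and 5615. KO values are not given without 711 or 752, and both entered the fit that set the spread for the WT test. Across the 15098 genes the WT and KO fold changes had a Pearson correlation of 0.04 and a Spearman correlation of 0.01, and -0.04 and 0.07 without 713, genes not being independent replicates. In KO, 534 genes (3.54%) were higher and 667 (4.42%) lower at an unadjusted p below 0.05, and without 713 these were 682 and 722. The myelin list had a median of -0.04 in KO, with 10 of 22 higher, 0 of them at that p in either direction, and without 713 a median of 0.01 with 11 higher. The ependymal median was -0.24 in KO, with 2 of 14 higher, and -0.58 with 0 of 14 higher without 713. At an unadjusted p under 0.05 for the interaction there were 2 myelin and 6 ependymal genes, and 1 and 8 without 713. The choroid plexus median was 2.30 in KO but 0.10 without 713, and the meningeal one was 0.68 and 0.59. Some lists kept their WT direction in KO. Cytosolic ribosomal protein genes had 76 of 77 higher, with 49 at an unadjusted p under 0.05 (3.54% of all genes). Their median was 0.32, and 0.42 without 713. Oxidative phosphorylation genes had 69 of 75 higher and a median of 0.15, and 65 and 0.19 without 713. Disease-associated microglia genes had 17 of 23 higher and 0.23, and 15 and 0.17 without 713. Synaptic vesicle release genes had 5 of 35 higher and -0.21, and 6 and -0.29 without 713. Heat shock proteins and chaperones, mostly higher in WT, had 10 of 39 higher and -0.09, and 9 and -0.12 without 713. The interaction called 0 genes at the FDR in edgeR with or without 713, with 631 (4.18%) and 675 at an unadjusted p under 0.05, so the WT and KO effects of single genes were not shown to differ.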

How the data were processed

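The deposited table held raw read counts per gene symbol. The authors aligned reads with STAR 2.5.2 to mm10 (GRCm38) and counted exon reads with HTSeq 0.9.1 in reverse-stranded mode. The study tested males with DESeq2. The legend of its bulk RNA-seq figure gives fewer KO tau samples than the 3 male KO tau libraries fitted here. The annotation release was not given in the sources used here. All 24498 symbols were read, 4152 without a count. Counts were tested with edgeR 4.0.16 in R 4.3.3 (TMM, filterByExpr with minimum count 10 and total 15, quasi-likelihood F-test, Benjamini-Hochberg) in 1 fit of the 12 male libraries, which share 1 estimate of the spread. The interaction was the WT minus the KO contrast. Python 3.11 drew the figures. Named genes were those past FDR 0.05, the 12 per direction with the smallest unadjusted p among genes that did not overlap and had a group mean of at least 1 CPM (predicted symbols left out), 12 fixed genes, and the most abundant and smallest-p members of 8 lists. Those 8 lists had medians farthest from that of all genes. Alternatives were DESeq2 1.42.0, RLE factors, library totals, no filter, fits of the 6 libraries, limma 3.58.1 voom with quality weights, and each library left out. Added after seeing the data were leaving out PBS 791 and Tau 772 together, leaving out KO Tau 713, and the cerebellum and cilium lists. The members and lists were chosen with earlier results of these data known. Scripts were tested on simulated data. Counts of predicted genes such as Gm7120 are uncertain where near-identical copies exist. Each library was counted as 1 sample. Values of a few genes that these rules name are not reported here.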

Additional observations from a re-analysis of the deposited data

Results flagged for a closer look

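Of 62 named genes, 5 had every tau library on one side of the PBS libraries in WT and on the opposite side in KO. How many of all tested genes did so was not counted, so the share cannot be set against a background. The WT minus KO difference in tau effect (log2) was 3.63 for Dmkn, 1.97 for Lrrc74b, 2.56 for Crocc2, -0.71 for Kiss1r and -0.42 for Ccdc64. The interaction test of edgeR, with Benjamini-Hochberg adjustment, gave each an adjusted p of 0.996, so the difference did not pass. Dmkn was at 0.96, 2.24 and 0.96 CPM after PBS and 0.32, 0.57 and 0.47 CPM after tau in KO, and all 5 genes were first selected for their WT values.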

How the results depend on the processing

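No paired analysis was possible because the WT PBS and WT tau libraries share no replicate number. The count of 0 genes past FDR 0.05 held in edgeR with RLE factors, with library totals, without the low-count filter and on the 6 libraries, in voom and in DESeq2 on the 12 male libraries. It did not hold in DESeq2 on the 6 libraries (11), and leaving out each library in turn gave 0 to 275 over the 3 fits. Genes at an unadjusted p under 0.05 numbered 255 higher without the filter, and 75 lower with library totals, where 71.8% of such genes were higher against 57.3% with TMM. They were 663 higher and 529 lower in edgeR on the 6 libraries, 478 and 385 in DESeq2 on them, and 651 and 700 in voom. Leave-one-out fits gave 67 to 1202 higher and 35 to 1305 lower. With PBS 791 and Tau 772 both left out there were 34 higher and 17 lower in edgeR on the remaining males, and 68 and 38 in DESeq2 on the WT libraries, 0 past the FDR in all 3 fits. The cause of these differences was not tested. In KO, DESeq2 on the 12 libraries called 37 genes against 0 in edgeR.

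List medians with 1 library left out ran from 0.49 to 1.88 for choroid plexus, 0.063 to 0.34 for reactive astrocytes, 0.14 to 0.30 for disease-associated microglia and 0.19 to 1.11 for meninges, and with 791 and 772 left out were 0.31 for choroid plexus and -0.011 for reactive astrocytes. Log2 fold changes near 0 changed sign. With 791 and 772 out, in the edgeR, WT-only edgeR and WT-only DESeq2 fits, App was -0.037, -0.034 and -0.036, Aif1 -0.027, -0.024 and -0.026, Trem2 -0.044, -0.038 and -0.041, and Bdnf -0.078, -0.076 and -0.077. Dcn was 0.20 in voom. With 1 library left out the ranges were -0.044 to 0.0078 for Mapt, -0.044 to 0.034 for App, -0.052 to 0.12 for Aif1, -0.00049 to 0.23 for Trem2, -0.22 to 0.32 for Npas4, -0.062 to 0.19 for Bdnf and -0.76 to 0.58 for Dcn.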

Other observations

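In KO males, DESeq2 on the 12 male libraries called 37 genes for tau against PBS, 3 of them higher, against 0 in WT with the same tool and fit. The only one of the named genes among the 37 was Npas4.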
